A study of Danio rerio with 12 samples.

Results

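Zebrafish embryos that lacked functional prdm1 were compared with wild-type controls at 10 somites, when the first trunk muscle fibres differentiate. The comparison used 6 of the 12 RNA sequencing libraries of the study, 3 per group, over all 18117 genes that passed a filter on low counts, of 31051 identifiers in the count table. The mutants were prdm1-/- embryos of the AB strain injected with a control morpholino at the 1-cell stage, and the controls were prdm1+/+ embryos of that strain given the same control morpholino, so both groups were injected embryos. A morpholino is an antisense oligonucleotide used to stop an RNA from being translated or spliced. The other 6 libraries came from embryos injected with pbx2/4 morpholinos, prdm1+/+ (called morphants here) or prdm1-/- (called double embryos). They entered the shared estimate of spread and supply a second contrast of genotype. RNA was taken from single embryos and pooled after genotyping, so each library is a pool of whole embryos. The prdm1 allele and the number of embryos per pool were not given in the sources used here.

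prdm1a encodes a zinc finger and SET-related domain protein, Blimp1 in mammals, that acts mainly as a repressor of transcription. In the zebrafish somite it is switched on by Hedgehog signalling in the adaxial cells beside the notochord, where it directs slow fibre formation and holds back fast fibre genes. It is also needed at the edge of the neural plate for Rohon-Beard sensory neurons and neural crest, and it is expressed in the hatching gland.

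Total counts ran from 9059663 to 16182215 in the 6 libraries, where 1 count was worth 0.063 to 0.115 CPM (normalised read counts scaled to the library total). Column names come in 3 forms, which define sets A, B and C, each with 1 library of every group, and the set was a block in the test. Set B lay apart from sets A and C on the first principal component of the 6 libraries (46.6% of their variance), and mutants lay apart from controls on the third (16.5%). A gene was called where its adjusted p was under 0.05 in edgeR's quasi-likelihood test with Benjamini-Hochberg adjustment over all genes tested. Adjusted p-values below are from this test unless it is said that the block was left out. Markers of muscle, notochord, neural tissue, epidermis, blood and hatching gland were all detected. Of these, the muscle marker smyhc1, the neural marker elavl3 and the hatching gland marker he1a were called lower and are described below. The others, myod1, actc1b, ntla, col2a1a, sox2, sox3, tp63, krt4, gata1a and ctsl1b, were not called. Because whole embryos were sequenced, fewer cells of a type and less RNA per cell cannot be told apart in any result below.

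The difference between the genotypes was narrow and ran in both directions. Of the 18117 genes 199 were called (1.10%), 89 of them higher in mutants (0.491%) and 110 lower (0.607%), and 1531 had an unadjusted p under 0.05. Every count of called list members below is to be read beside these shares. The lists were chosen with earlier results of these data known, and members may be listed because they change. A list's share above these is therefore not a test of a tissue or process. Without the block 35 were called (0.193%), all among the 199. The median log2 fold change of all genes was 0.00, with 49.0% below 0. Among the called genes 34 rose and 55 fell by at least 1 on the log2 scale, and 44 changed by less than 0.5. The change had the same sign in all 3 sets for 196 of the 199. The 199 were selected by a fit with these sets as the block, so this is not separate support for them. Of the 199 called genes, the mutant libraries lay wholly above the controls for 67 and wholly below them for 86. Of all genes tested 2.64% and 3.40% did so. The test itself selects genes whose groups lie apart, so this is not separate support either. Leaving out 1 library at a time, 77 of the 199 genes kept their call in all 6 fits, 36 that rose and 41 that fell.

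**Figure D1:**
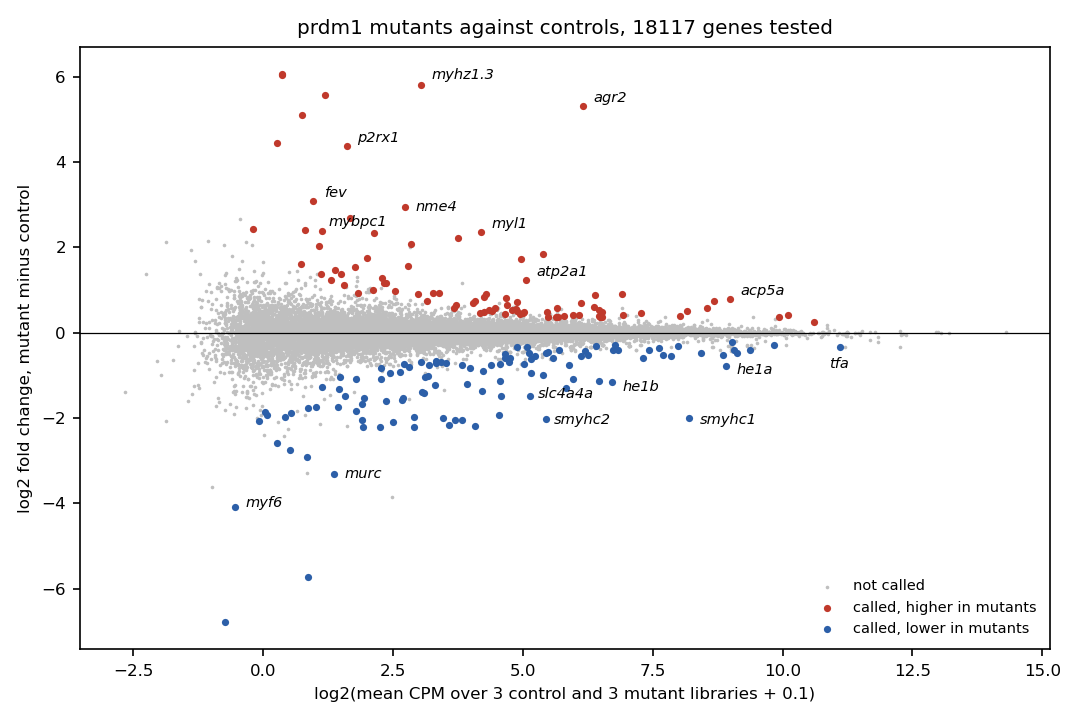
Log2 fold change of mutants over controls (vertical axis) against log2 of the mean CPM plus 0.1 over the 6 libraries (horizontal axis) for all 18117 genes tested. The 89 called genes that rose are red and the 110 that fell are blue, and most genes lie in a narrow band around 0, with agr2 and the fast myosin gene myhz1.3 far above it and the slow myosin gene smyhc1 at the high-abundance end of the genes that fell.

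The targeted gene was not lower at the RNA level. prdm1a stood at 106.2, 94.82 and 113.5 CPM in the controls of sets A, B and C and at 143.9, 132.1 and 140.7 CPM in the mutants. All 3 mutant libraries were above all 3 controls, and the rise of 0.41 on the log2 scale (SE 0.06) was called (adjusted p = 0.001695, and 0.513 without the block). An RNA level does not measure loss of the protein, so it does not check the genotype labels. The paralogue prdm1b is listed under a pair of identifiers, with means of 1.68 and 2.79 CPM in controls and 2.93 and 2.67 CPM in mutants, and neither was called (adjusted p = 0.522 and 0.9989). prdm1c was below the filter.

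Slow myosin heavy chain RNA, the motor protein of the first fibres to form, was far lower in mutants. smyhc1 stood at 487.4, 373.0 and 549.2 CPM in controls and at 145.7, 68.8 and 144.2 CPM in mutants. No mutant library came near any control, and the lowest mutant value was in set B, where the control was also lowest. The log2 fold change was -1.99 (SE 0.19, adjusted p = 5.447e-05, and 0.00865 without the block). smyhc2 and smyhc3 fell by 2.03 and 2.16 on the same scale. These genes are near-identical copies, so how reads were divided among them is uncertain. Their summed level was 577.9, 449.9 and 649.8 CPM in controls and 170.5, 82.6 and 169.2 CPM in mutants, so the fall does not rest on that division.

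Fast myosin heavy chain RNA was almost absent from controls and present in every mutant library. The summed level of myhz1.1, myhz1.2, myhz1.3 and myhz2 was 0.6174, 0.3444 and 0.3778 CPM in controls, which is 6, 3 and 6 counts. In mutants it was 19.46, 19.48 and 35.77 CPM, or 242, 175 and 539 counts. The groups were thus far apart in each set, and the highest mutant value was in set C. All 4 genes were called with and without the block. Mutant counts were nearly the same for myhz1.1 (18, 21 and 50) and myhz1.2 (20, 19 and 51). How reads were divided among these genes was not checked, so the 4 calls may not be separate. The best measured of the 4 genes, myhz1.3, rose by 5.80 (SE 0.36, adjusted p = 1.223e-06). The others rested on 1 to 3 control counts: the ratio of mutant to control was 52.7 for myhz2, with a 95% interval for counting error of 17.7 to 258, and 83.7 for myhz1.1 (14.6 to 3340). Fast heavy chains made up 0.107%, 0.0765% and 0.0581% of slow and fast heavy chain counts together in controls and 10.2%, 19.1% and 17.5% in mutants, so slow heavy chain RNA still made up most of the total. Other members did not pass the test. myhc4 stood at 0.17 CPM in controls and 1.12 CPM in mutants (adjusted p = 0.05105), with 3, 0 and 3 counts in controls and 14, 8 and 20 in mutants. It was called when no low-count filter was applied. myhb stood at 1.90 and 1.70 CPM (0.99). myha was below the filter and not tested, with 2, 0 and 1 counts in controls and 10, 7 and 25 in mutants.

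Other slow muscle genes changed less uniformly. Of 19 tested, 4 fell and 1 rose, with a median log2 fold change of -0.49 and 16 below 0. The myosin light chain that the table names MYL4 stood at 33.96, 32.14 and 45.09 CPM in controls and at 11.66, 4.676 and 12.34 CPM in mutants, with no overlap between the groups. It fell by 1.92 (SE 0.21, adjusted p = 0.000189, and 0.01458 without the block). myl10, a regulatory myosin light chain, fell by 1.12, and its call was lost without the block (adjusted p = 0.9999). tnnt2c, a troponin T of the thin filament, fell by 0.98 with a call in both fits. The tropomyosin gene tpm3 fell by 0.21, a change called in the 12-library fit (adjusted p = 0.04785) and lost without any 1 of the 6 libraries (adjusted p = 0.103 to 0.262), without the block (0.9999), in DESeq2 and under RLE size factors. mybpc1, the slow form of myosin-binding protein C, went the other way, from 0.8232, 0.2296 and 0.8816 CPM to 5.146, 1.447 and 4.048 CPM. It was higher in every mutant library than in any control, with the lowest mutant value in set B. The rise of 2.39 (SE 0.25, adjusted p = 0.0001167) was not called without the block (0.401).

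Rises among fast muscle genes were limited to a few members. Of 21 fast genes other than heavy chains 3 rose and none fell, and the median log2 fold change was -0.03. The fast essential light chain gene myl1 stood at 4.219, 5.051 and 8.438 CPM in controls and at 25.01, 28.39 and 38.09 CPM in mutants. Each mutant library was above every control, and the log2 fold change was 2.35 (SE 0.15, adjusted p = 1.223e-06, and 0.003851 without the block). mylz2, a fast regulatory light chain, rose by 2.22 with a call in both fits. atp2a1, the calcium pump of the fast fibre sarcoplasmic reticulum, rose by 1.24 (adjusted p = 0.002524, and 0.1325 without the block). Other fast genes were already well expressed in controls and were not called: tnni2b.1 stood at 72.6 and 72.9 CPM, actn3b at 47.4 and 41.3 CPM, and tnnc2 at 39.7 and 31.6 CPM in controls and mutants. A pair of muscle genes outside the lists moved in the same direction as myl1. CR847973.1, whose current symbol is that of the M-band protein myomesin 2, rose by 2.35 with a call in both fits. tmem8c, which encodes the membrane protein myomaker needed for myoblast fusion and was singled out after its values were seen, stood at 1.749, 2.066 and 1.574 CPM in controls and at 7.076, 5.678 and 5.309 CPM in mutants. Its groups did not overlap, and it rose by 1.76 (adjusted p = 0.004289, 0.0828 without the block and 0.0618 without the control of set C).

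**Figure D2:**
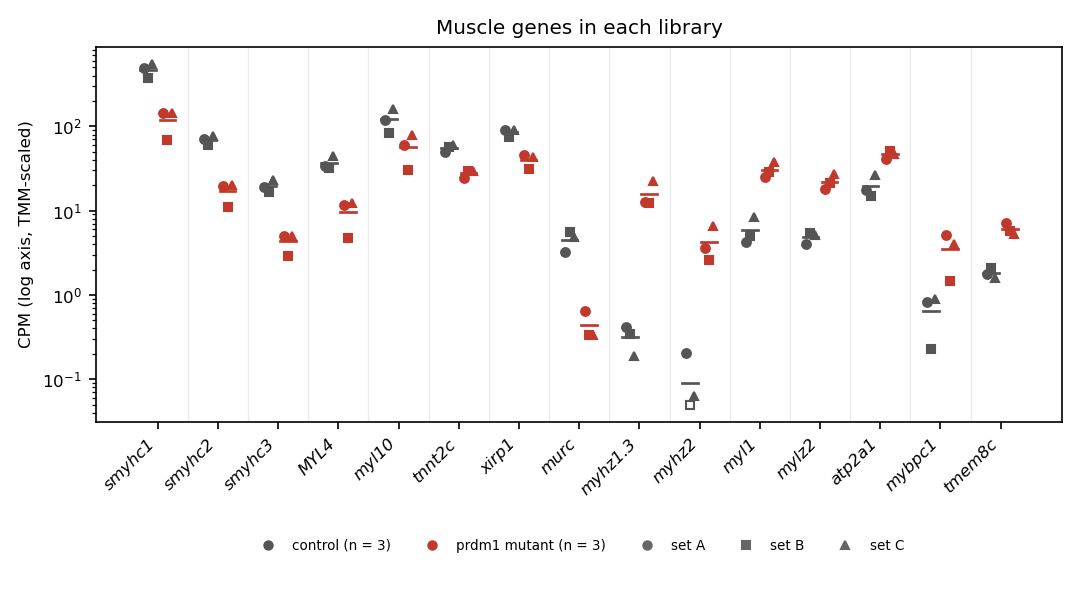
CPM of 15 muscle genes in each control (grey) and mutant (red) library on a log axis, with set A as circles, set B as squares and set C as triangles; lines mark group means, and the open symbol is a library with 0 counts of myhz2 drawn at 0.05 CPM. The slow genes and the shared genes xirp1 and murc on the left fall. The fast genes from myhz1.3 to atp2a1 rise, as do the slow gene mybpc1 and tmem8c, and the groups do not overlap for any gene drawn.

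Among sarcomere genes shared by both fibre types a few fell, and among the myogenic regulators 1 did. Of 61 shared sarcomere and contraction genes 4 fell and none rose, 46 had a log2 fold change below 0 with a median of -0.17, and 21 had an unadjusted p under 0.05. xirp1, an actin-binding protein of muscle attachment sites, stood at 90.24, 75.3 and 89.67 CPM in controls and at 45.51, 31.17 and 43.54 CPM in mutants. The mutant values were below all control values, and the fall of 1.09 (SE 0.11, adjusted p = 0.0001167) was called in both fits. murc, a caveola protein of muscle also known as cavin4, fell by 3.31 from 3.19, 5.51 and 4.912 CPM to 0.6432, 0.334 and 0.3318 CPM (adjusted p = 0.001884, and 0.1325 without the block). Skeletal actin acta1a fell by 0.53 and the acetylcholine receptor subunit gene CHRNG by 1.03. Both calls were lost without the block (adjusted p = 0.9999 and 0.1807). That of acta1a was lost without the control of set C or the mutant of set A or B (at most 0.08), and that of CHRNG without any single library but the mutant of set C (at most 0.177). Outside the lists, zgc:86709, whose current symbol is that of a sarcomeric actin, fell by 1.31 from 74.09, 77.6 and 91.24 CPM to 31.2, 28.72 and 37.56 CPM with a call in both fits. kbtbd10a, a kelch protein of the sarcomere singled out after its values were seen, fell by 1.67 (adjusted p = 0.000927, and 0.05027 without the block). Only myf6, a bHLH factor of differentiating muscle, was called among 47 myogenic and somite regulators, where 1.10% of all genes were called. It had 15, 8 and 14 counts in controls and 0, 1 and 1 in mutants, a ratio of 0.0508 (95% interval for counting error 0.00594 to 0.197), with a call in both fits. The regulators myod1 (90.8 CPM in controls and 80.5 in mutants, adjusted p = 0.7331) and myog (30.0 and 40.2, 0.3748) and the fast programme regulator sox6 (12.9 and 12.5, 0.9996) were not called. Nor was prox1, at 6.95 and 6.61 CPM. A further 4 identifiers that carry only clone names fell in parallel with the slow myosins, by 2.01 to 2.19, with calls in both fits. CU633479.6 was at 25.93, 25.14 and 32.37 CPM in controls and at 6.513, 4.119 and 7.367 CPM in mutants.

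Several genes of Rohon-Beard and other sensory neurons fell in mutants, and 1 listed gene rose. Rohon-Beard cells are the first touch-sensing neurons of the embryo and lie in the dorsal spinal cord. Of 56 listed genes tested 7 fell and 1 rose, and 44 had a log2 fold change below 0 with a median of -0.19. isl1, a LIM homeodomain factor of these and other neurons, stood at 21.4, 17.91 and 23.68 CPM in controls and at 9.246, 9.797 and 8.76 CPM in mutants. All mutant values were below all control values, and the fall of 1.20 (SE 0.12, adjusted p = 5.854e-05) was called without the block too (0.006559). isl1 is also a heart field gene, and it and MYL4 were the only calls in that list of 20 tested. It is in the endoderm and pharyngeal list as well, with hnf4a the only other call of 22. Whole-embryo RNA does not tell which tissue its fall came from. drgx, a homeodomain factor of sensory neurons, stood at 6.174, 5.51 and 5.1 CPM in controls and at 2.332, 1.336 and 2.057 CPM in mutants. Again the groups were apart, with a fall of 1.53 (adjusted p = 0.005618, 0.2391 without the block and 0.0521 without the mutant of set C).

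The other called members of the list were not called without the block. elavl3, an RNA-binding protein of most early neurons, fell by 0.41 from 142.1, 101.8 and 121.8 CPM to 112.4, 72.92 and 91.25 CPM. It was lower in each set, but the groups overlapped, and the call (adjusted p = 0.001247) was kept without each of the 6 libraries and lost without the block (0.9999). The homeodomain genes tlx3b and isl2b fell by 1.28 and 1.04. Both calls were lost in DESeq2 and without any 1 of the 6 libraries (at most 0.27 and 0.202). The axonal adhesion gene cntn2 fell by 1.08 and lost its call without either the control of set A (0.0801) or of set C (0.096) or the mutant of set B (0.0685) or of set C (0.0993). stmn2a, a regulator of neuronal microtubules, fell by 1.98 and lost it without the control of set A (0.0972) or the mutant of set A (0.138) or C (0.119). Without the block the adjusted p was 0.1709 for stmn2a, 0.2245 for isl2b, 0.3237 for cntn2 and 0.7551 for tlx3b. Outside the list, zgc:158291, a POU homeodomain gene with the current symbol pou4f4, fell by 1.61 from 8.026, 7.347 and 7.619 CPM to 3.055, 1.781 and 2.655 CPM with a call in both fits (adjusted p = 0.0002143 and 0.03526). The neurogenic bHLH genes neurog1 (21.7 CPM in controls and 19.7 in mutants) and neurod4 (19.6 and 18.8) were not called. olig4, a bHLH gene of the neural tube, rose by 0.80 from 16.26, 22.73 and 17.44 CPM to 30.55, 36.74 and 30.13 CPM. Its groups did not overlap, and the call (adjusted p = 0.002385) was lost without the block (0.9999).

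A minority of neural crest genes fell, by 0.55 to 1.14 on the log2 scale. Of 35 tested 4 fell and none rose, where 0.607% of all genes were called lower. The median log2 fold change was -0.04, and none was called without the block (adjusted p = 0.183 to 1). EDNRA (1 of 2), an endothelin receptor gene of crest-derived cells, stood at 29.33, 41.33 and 25.25 CPM in controls and at 10.05, 23.71 and 11.22 CPM in mutants. All mutant libraries were lower than all controls, and set B was highest in both groups. The fall was 1.14 (SE 0.13, adjusted p = 0.0002143), and the call was kept without each of the 6 libraries (at most 0.00309). The crest transcription factor gene sox10 fell by 0.55 from 39.0, 56.02 and 38.66 CPM to 24.93, 41.41 and 25.68 CPM, with overlap between the groups. Its call (0.02093) was kept without the mutant of set B and lost without each other library (adjusted p = 0.0695 to 0.165). sox9b fell by 0.60 and lost its call likewise (0.0626 to 0.203). C11H3orf54 (2 of 2), now named inka1a, fell by 0.90 without overlap between the groups. Its call was kept without each of the 6 libraries (at most 0.0208). tfap2a, a factor at the neural plate border, stood at 164.8 and 143.1 CPM (adjusted p = 0.09283) and foxd3 at 22.1 and 26.3 CPM (0.6945), and neither was called.

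In the hatching gland list the hatching enzyme genes he1a and he1b fell and agr2 rose. Hatching gland cells store the proteases that digest the egg envelope. Of 29 genes tested 3 fell and 2 rose, with a median of -0.07. he1b, a hatching enzyme, stood at 149.5, 93.21 and 192.6 CPM in controls and at 62.88, 46.76 and 82.83 CPM in mutants, and the mutants lay below every control. It fell by 1.16 (SE 0.08, adjusted p = 2.021e-06, and 0.5725 without the block). he1a fell by 0.78 from 626.1, 413.4 and 796.0 CPM to 357.8, 256.7 and 447.7 CPM (adjusted p = 2.151e-05, and 0.9999 without the block), and here set B controls lay within the range of the mutants. Reads may be shared between the closely similar he1 copies. The cathepsin L gene wu:fa26c03 fell by 0.40, a call lost without any 1 of the 6 libraries (adjusted p = 0.0696 to 0.303). ctsl1b, the abundant cathepsin of the gland, stood at 700.0 CPM in controls and 567.0 CPM in mutants and was not called (0.2083).

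agr2 was the most strongly supported rise of all genes. It encodes a protein disulfide isomerase of secretory cells and stood at 2.47, 3.673 and 4.597 CPM in controls and at 133.1, 80.71 and 201.9 CPM in mutants. The lowest mutant value, in set B, was many times the highest control value. The log2 fold change was 5.30 (SE 0.18, adjusted p = 1.391e-09, and 0.0003348 without the block). SPDEF, an ETS factor that drives mucous cell genes in mammals, rose by 2.40 from 0.4116, 0.8035 and 0.4408 CPM to 3.216, 1.225 and 3.783 CPM. Its call (0.01556) was lost without the block (0.1376) and without any library of set A or C (0.0905 to 0.209). None of 31 genes of the secretory pathway and unfolded protein response was called by edgeR, DESeq2 or limma-voom, 4 had an unadjusted p under 0.05, and their median was -0.08. The regulator xbp1 stood at 374.5 CPM in controls and 336.1 CPM in mutants (adjusted p = 0.1815). The ionocyte factors foxi3a and foxi3b had log2 fold changes of 0.00 and 0.01 and were not called.

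**Figure D3:**
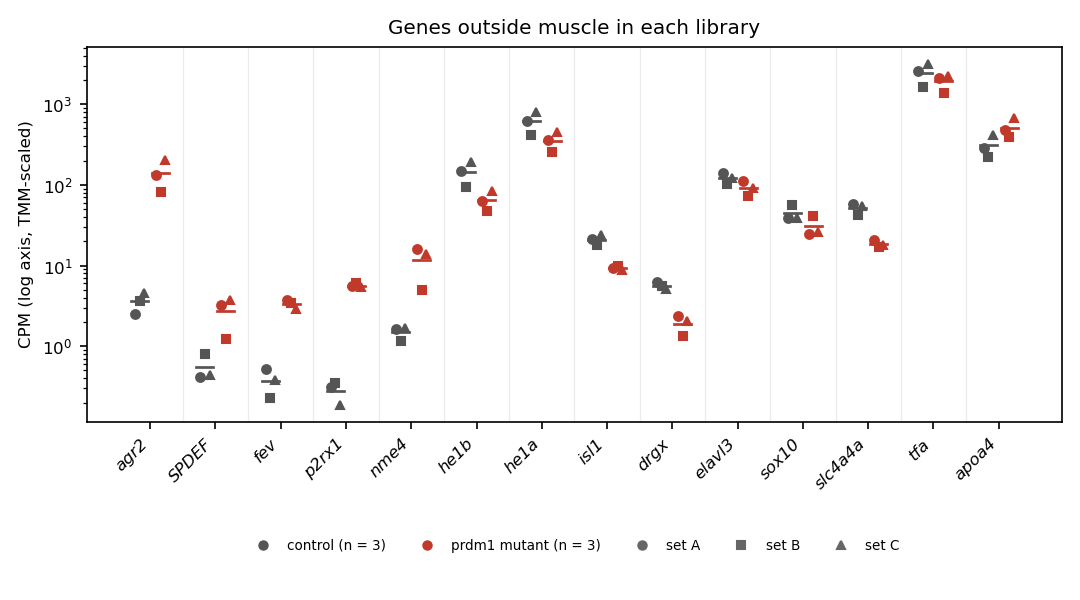
CPM of 14 genes outside muscle in each control (grey) and mutant (red) library on a log axis, with set A as circles, set B as squares and set C as triangles and lines at the group means. agr2, SPDEF, fev, p2rx1 and nme4 lie higher in all mutant libraries, while he1a, elavl3, sox10, tfa and apoa4 show groups that overlap and a shift within each set.

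Several other genes rose from near silence or by a wide margin. p2rx1, an ATP-gated cation channel, stood at 0.3087, 0.3444 and 0.1889 CPM in controls and at 5.548, 6.012 and 5.376 CPM in mutants. The mutant values were even across the sets, and the rise was 4.38 (SE 0.36, adjusted p = 2.151e-05). fev, an ETS factor known from serotonergic neurons, rose by 3.08 from 0.5145, 0.2296 and 0.3778 CPM to 3.699, 3.451 and 2.854 CPM. nme4, a nucleoside diphosphate kinase, rose by 2.94. zgc:112994 rose by 1.72 from 14.2, 14.12 and 14.67 CPM to 48.24, 51.1 and 44.13 CPM, with little spread in either group (SE 0.09, adjusted p = 1.503e-07). acp5a, an acid phosphatase, was the most abundant gene that rose with a call in both fits, from 369.6, 342.7 and 410.7 CPM to 659.6, 586.8 and 690.6 CPM. All 5 genes were called without the block as well.

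Among other genes that fell, slc4a4a had the smallest adjusted p. It encodes a sodium bicarbonate cotransporter and stood at 57.83, 42.24 and 54.22 CPM in controls and at 20.5, 17.14 and 17.85 CPM in mutants. The mutant libraries were tightly grouped below all controls, with a fall of 1.48 (SE 0.09, adjusted p = 1.223e-06, and 0.0003775 without the block). Of 24 pronephros genes it and hnf4a were called, and the median was 0.00. hnf4a, a liver, gut and kidney transcription factor, fell by 0.75, a call lost without the block (0.5442) and without each library except the control of set B (0.111 to 0.308). The forebrain factor gene foxg1a fell by 0.74 from 26.44, 28.81 and 33.44 CPM to 16.72, 17.59 and 18.78 CPM (adjusted p = 0.001343, and 0.03881 without the block). It was the only call among 49 genes of forebrain, midbrain and eye, where 1.10% of all genes were called. tm4sf4, a tetraspanin-like membrane protein, fell by 2.76 and the very long chain fatty acid elongase gene ELOVL4 (2 of 3) by 1.48, both with calls in both fits. itga5, the fibronectin receptor subunit of somite boundaries, fell by 0.43 (adjusted p = 0.003327, and 0.9999 without the block).

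Inducible heat shock RNA was lower in mutants in each set and varied widely between sets. The cytosolic hsp70 genes, 2 identifiers named hsp70 and 1 named hsp70l, summed to 17.29, 32.72 and 21.28 CPM in controls and to 4.261, 8.572 and 4.048 CPM in mutants. Both groups were highest in set B. Each of the 3 identifiers was called with the block, with falls of 2.05 to 2.22, and none without it (adjusted p = 1). They are near-identical copies that can share reads. All 3 calls were lost without the mutant of set B (adjusted p = 0.0699 to 0.119), and those of both hsp70 identifiers also without the control of set C (0.0865 and 0.0626) or the mutant of set A (0.0778 and 0.0528). The identifier with the higher level lost its call without the control of set A (0.0671) or the mutant of set C (0.0583) too. In the other genotype contrast the hsp70 sum was 14.87, 42.29 and 6.176 CPM in morphants and 4.181, 22.22 and 4.349 CPM in double embryos, and none of the 3 was called there. A further identifier, si:ch73-46h18.6, has the current symbol HSPA2 and was not part of these sums. It fell by 2.21 (adjusted p = 0.009172). Its call was lost without the block (0.9999) and without the mutant of set A (0.0517) or B (0.0837).

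Lists for several other tissues and processes held no gene called by edgeR, DESeq2 or limma-voom. At the 1.10% called over all genes, lists of these sizes would hold few called genes or none. A list without a call therefore does not show that a tissue or process was unchanged. Among tissues this was so for blood (27 genes tested, median log2 fold change 0.25), endothelium (27, median -0.19), notochord and floor plate (33, median 0.06), tailbud and segmentation clock (55, median 0.02) and preplacodal and otic genes (23, median -0.05). In these lists 3, 8, 3, 5 and 9 genes had an unadjusted p under 0.05, beside 1531 of 18117 over all genes. The endothelium list (8 of 27) and the preplacodal and otic list (9 of 23) were well above that share. In the tissue lists, in the order given, 5, 21, 7, 24 and 15 genes had a log2 fold change below 0, beside 49.0% of all genes. A lean in sign was thus also seen in blood and in notochord and floor plate. No gene was called either among hox genes (44, median 0.01), cell cycle genes (47, median 0.02), p53 and DNA damage response (24, median -0.04) and ribosomal proteins (88, median -0.03). In those lists 0, 1, 0 and 0 genes had an unadjusted p under 0.05, and 20, 19, 15 and 69 had a log2 fold change below 0. Of 34 Hedgehog pathway genes prdm1a itself was called and no other. Of 13 genes known as Blimp1 targets in mammalian cells none was called by any of the 3 tools, 1 had an unadjusted p under 0.05, and the median was 0.08. In the epidermis list icn, an S100-type calcium-binding protein, rose by 0.91, which was 1 of 39 genes tested. Its call was lost without the block (adjusted p = 0.9999) and without the controls of set A (0.0599) or C (0.116) or the mutant of set C (0.0761).

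**Figure D4:**
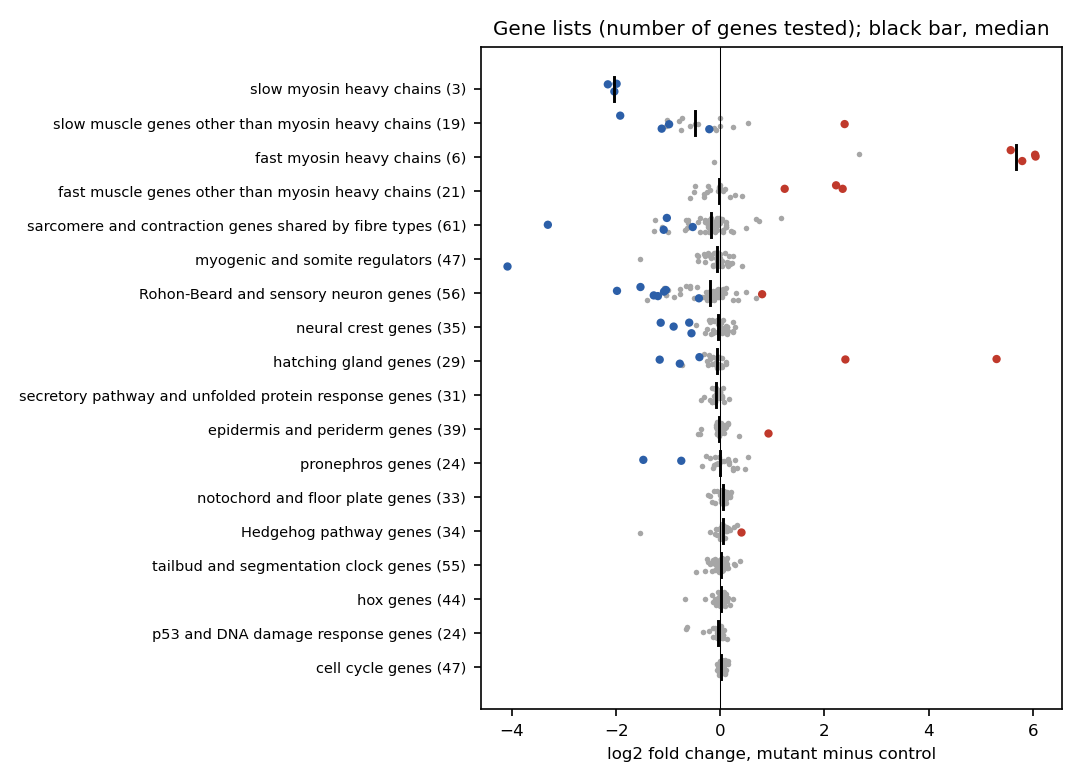
Log2 fold change of mutants over controls for the genes tested in 18 lists, with called genes in red (higher) or blue (lower), other genes in grey and a black bar at each list's median; numbers in brackets are genes tested. The 3 slow myosin heavy chains sit near -2 and 4 of the 6 fast ones near 6, whereas the medians of lists such as cell cycle, hox and tailbud genes lie at 0.

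The genotype contrast in embryos with pbx2/4 morpholinos rests on libraries that the comparison above did not contrast, though they belong to the same 3 sets. Between double embryos and morphants 218 genes were called (1.20%), and 124 of these were among the 199, which is 62.3% of the mutant list and 56.9% of the other. All 199 genes had the same sign in both contrasts, and the share of all genes tested that did so was not counted. Of the 199, 63 were called higher in both and 61 lower in both. Of all genes, 0.707% and 0.497% were called higher and lower between double embryos and morphants. Both contrasts came from the same fit, with a shared estimate of spread for each gene. The calls are therefore not independent of each other. smyhc1 fell there too, and slow heavy chains summed to 529.0, 377.8 and 418.7 CPM in morphants and to 46.25, 71.28 and 62.95 CPM in double embryos. Fast heavy chains summed to 0.3215, 0.3845 and 0.4751 CPM in morphants and to 4.094, 8.91 and 11.22 CPM in double embryos. The 3 double values were below the 3 mutant values, and the share of fast in slow and fast counts was 8.13% to 15.1% in double embryos and 10.2% to 19.1% in mutants. The difference between the contrasts itself was tested over all genes, and edgeR called 0 (0.00%), with 523 genes at an unadjusted p under 0.05. DESeq2 and limma-voom also called 0, with 193 and 528 genes at an unadjusted p under 0.05.

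**Figure D5:**
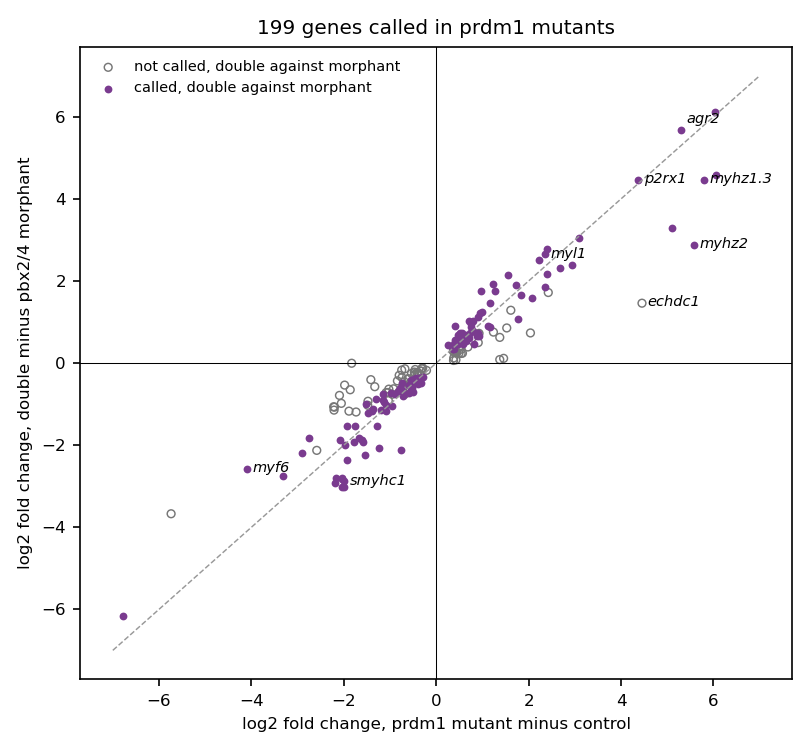
Log2 fold change between double embryos and morphants (vertical axis) against that between mutants and controls (horizontal axis) for the 199 genes called in mutants, with filled points for the 124 called in both contrasts and a dashed line where the changes are equal. All points have the same sign on both axes, and myhz2 and echdc1 lie below the line.

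Genes near prdm1a were counted separately, because a pool of homozygous mutants is also homozygous for the chromosome segment around the mutation. By gene order in the GRCz12tu assembly, to which 15245 of the tested identifiers matched (84.1%), 22 of the 708 tested genes on the chromosome of prdm1a were called besides prdm1a itself (3.11%), 12 higher and 10 lower. On all other chromosomes 154 of 14536 were called (1.06%), and the share ran from 0.362% to 2.09% over 24 chromosomes. Among the 200 tested genes nearest prdm1a 9 were called (4.5%), 7 higher and 2 lower. echdc1 was the largest of these, with 0, 2 and 1 counts in controls and 27, 21 and 28 in mutants, a ratio of 23.8 (95% interval for counting error 7.85 to 118). The sensory gene stmn2a and gapdh, which rose by 0.51, are also among them. The genes icn, apoa4 and PKLR, described in other paragraphs, are among the 22 but lie farther from prdm1a. None of the 22 was called without the block. Double embryos carry the same segment, so that contrast does not separate it from loss of prdm1, and the 2 cannot be told apart here.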

How the data were processed

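Messenger RNA was sequenced from pools of whole zebrafish embryos in 4 groups of 3 libraries. The authors deposited a table of estimated counts per gene, not normalized: 13.7% of the values were not whole (tolerance 1e-06), and they were rounded before testing. The design had assumed count data, and the same test was used. The submitters' processing notes name TopHat 1.4, edgeR and the Zv9 build. The read assignment, annotation and strand setting were not given in the sources used here. Reads of overlapping or antisense genes may be mixed.

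Column names give the group without a replicate number, and in 4 of them W was read as wild type and M as mutant. Sets A, B and C were taken from the form of the column names. The labels describe 3 independent rounds of egg collection and injection, and do not tie a column to a round. The set served as the replicate block because columns were paired by the form of their names. Across genes, the correlation of deviations from the group means was 0.448 to 0.669 in 18 same-set pairs of libraries. It was -0.483 to -0.03 in the 36 other pairs. Deviations of the 3 libraries of a group cancel out, so positive same-set values make the other values negative on balance. No 2 libraries of a group agreed within sampling noise (smallest chi-square per gene 12.2). Libraries of a group come from different sets, so that value includes set differences. Whether pools of a group share embryos is not stated, so p-values measure spread between these libraries only. With the block they measure the spread left after set differences are removed. Without it they measure the whole spread within groups.

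Tests used edgeR 4.0.16 in R 4.3.3 (quasi-likelihood F test, TMM, filterByExpr, all 12 libraries, group and set, Benjamini-Hochberg adjustment, threshold 0.05), with a biological coefficient of variation of 0.075, and 0.212 without the block. Fold changes are log2 and computed from the counts. The standard error (SE) of a log2 fold change was taken as its size over the root of F. CPM are on TMM-scaled library sizes. DESeq2 1.42.0, limma-voom (limma 3.58.1), RLE size factors, other filters, no rounding, fits of 6 libraries, no block and leaving out libraries or sets were the alternatives. The main fit was also run on simulated data with the same spread for every gene, the set differences of these data and changes in better expressed genes only. That run cannot test low counts, spread that differs between genes or the choice of block. Intervals on count ratios are exact at 95% and cover counting error only.

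The comparison, the 35 gene lists, the tests and the block were chosen with earlier results of these data known. Named genes were the prdm1 and myosin heavy chain genes, the 15 largest rises and falls of at least 1 CPM with 1 sign in all sets, called list members, genes called without the block, and the 3 most abundant called genes in each direction, of which those that matter most are described. Current symbols came from a table of gene names, and gene order from GRCz12tu. The authors' own comparison tables were not used. Promoter and protein sequences were not used here, so the planned motif counts were not made.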

Additional observations from a re-analysis of the deposited data

How the results depend on the processing

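With the replicate block 199 genes were called, 89 higher and 110 lower. With no replicate block there were 35 (15 higher, 20 lower), and all 35 were among the 199. With only the 6 control and mutant libraries there were 471 (229 and 242) with the replicate block and 18 (12 and 6) without. These fits tested 17087 genes and had fewer residual degrees of freedom than the 12-library fits, so 471 is not a firmer count. The residual degrees of freedom were 6 with the block and 8 without it in the 12-library fits. Leaving out a library or a whole set gave 59 to 200 called genes, 26 to 99 higher and 33 to 101 lower. Single libraries gave 99 without the control of set C, 107 without the mutant of set C, 113 and 114 without the mutant and control of set A, 134 and 171 without those of set B. Without set A, B or C there were 59, 200 and 70. RLE size factors gave 200, DESeq2 212, limma-voom 197, no filter 290, a filter of at least 1 CPM in 3 libraries 198 and no rounding 201. Between double embryos and morphants, 218 became 27 with no replicate block and 73 to 235 on leaving out libraries or sets. The interaction gave 0 in each of these fits.

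Of the 86 named genes 82 were called, and none of them changed direction in any alternative. Of the 82, 52 stayed called whichever of the 6 libraries was left out, 38 without each set, 35 without the block and 15 in all 18 alternatives. These 15 include the slow myosins smyhc2 and smyhc3, the 4 fast myosin genes of the myhz group, the light chains mylz2 and myl1, and agr2, p2rx1, fev and slc4a4a. DESeq2 lost 8 calls (tpm3, cp, tlx3b, crabp1b, isl2b, samd7, lcat and si:dkey-88l16.5), and limma-voom lost samd7 and 1 hsp70 identifier. At these depths genes below about 1 CPM rest on a few counts per library.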

Other observations

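Among the called genes were several for plasma proteins and for the handling of lipids and sugars. Of those named here, apoa4 and SOAT2 are in the lipid and sterol metabolism list given below, and tfa was named for its abundance. The others were picked from the called genes after their values were seen, with no list and no number tested behind them. The grouping itself was also made after the values were seen, so they describe single genes and not a group. apoa4, an apolipoprotein gene, stood at 284.5, 224.6 and 418.8 CPM in controls and at 474.0, 389.9 and 673.4 CPM in mutants, higher in each set with overlapping groups (adjusted p = 0.001628). The complement gene C7 (1 of 2) rose by 0.90 and the fibrinogen gene fgg by 0.71, and the call of fgg was lost without the control of set C (adjusted p = 0.0626). HPX (1 of 2), a hemopexin gene, rose by 2.04 from 0.7203, 0.8035 and 0.7556 CPM to 3.618, 3.562 and 2.655 CPM. tfa, the transferrin gene and the most abundant gene called lower, stood at 2579, 1652 and 3151 CPM in controls and at 2130, 1384 and 2249 CPM in mutants, lower in each set with overlapping groups (adjusted p = 0.00623, and 0.064 and 0.0515 without the control or the mutant of set C). PKLR, a pyruvate kinase gene, fell by 1.48 and the bile salt pump gene abcb11a by 0.54. SOAT2, a sterol acyltransferase gene, fell by 1.39 and was called without the block too (adjusted p = 0.04677), which none of the others named here was.

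Counts for other lists stand beside 1.10% called among all genes. Of 66 lipid and sterol metabolism genes 1 rose and 4 fell (median -0.01), of 40 bicarbonate and ion transporter genes 1 rose and 1 fell (median 0.02), and of 93 extracellular matrix and adhesion genes 2 fell (median 0.04). Of 23 retinoic acid pathway genes crabp1b fell, by 1.97 from 1.338, 2.411 and 2.204 CPM to 0.402, 0.668 and 0.4646 CPM. Its call was lost without the block (adjusted p = 0.2141) and without the control of set C (0.135) or any 1 mutant library (0.0562 to 0.108). The called fall of si:ch73-6k14.1 rested on control C, which held 159 of its 160 control counts, and its sign differed between sets. si:dkey-71b5.3 had 19, 0 and 17 counts in controls and 0 in each mutant library, at least 12.8-fold lower over the group against a floor of 3 counts, with no counts in either library of set B.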
